A study of Mus musculus with 6 samples.

Results

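The 10 genes described here, Nkx2-5, Isl1, Gata4, Gata5, Gata6, Hand1, Hand2, Mef2c, Myocd and Smarcd3, encode the regulators that switch on the heart muscle programme in lateral mesoderm. They were chosen by name as a pathway, all 10 have a row among the 46078 genes of the deposited tables, and all 10 were among the 15568 genes with enough counts to be tested. Polyadenylated RNA was sequenced from explants of mesoderm, the germ layer formed by cells that ingress through the primitive streak, dissected from E7.25 mouse embryos. The 6 libraries form 3 groups of 2: untreated or vehicle controls (the labels do not say which), explants given 1 µM of an inhibitor abbreviated PD in the labels for 16 h, and explants given 10 µM YZ9 for 16 h. YZ9 is a small molecule known to block PFKFB3, the enzyme whose product speeds up glycolysis. All 3 groups are labelled wild type, and the series description names TCF/Lef:H2B-GFP reporter mice, which carry a reporter of WNT signalling. All explants were cut free after trypsin and pancreatin, had 3 to 4 h to attach to fibronectin, and stayed in culture for 27 h in all by the growth protocol or 24 h by the series description. The labels do not say how many embryos an explant library holds, or whether libraries of the same group were separate cultures, so a p-value here measures only the spread between these libraries.

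Heart muscle arises from mesoderm cells that have left the primitive streak and reached the front of the embryo as the cardiac crescent. NKX2-5 and ISL1 are homeodomain proteins, the first present throughout the crescent and the second known for the progenitors that are added to the heart later. GATA4, GATA5 and GATA6 are zinc finger proteins that bind the same short DNA word, and HAND1 and HAND2 are basic helix-loop-helix proteins that bind E-boxes. MEF2C binds the promoters of muscle genes, myocardin (Myocd) is a coactivator of SRF on contractile genes, and Smarcd3 encodes BAF60c, the subunit through which the BAF chromatin remodelling complex is brought to cardiac genes. Several of these genes also work outside the heart: Gata4 and Gata6 in endoderm, Mef2c in endothelium, Hand1 in extraembryonic mesoderm and trophoblast, Myocd in smooth muscle.

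Total counts per library were 21253194 to 27810161, and the members had between 14 counts (Nkx2-5 in PD replicate 2) and 14983 counts (Hand1 in the same library). The 4 Y-linked genes summed had 4286 to 9736 counts in control replicates 1 and 2, PD replicate 1 and YZ9 replicate 1, but 3 and 0 in PD replicate 2 and YZ9 replicate 2, where Xist had 2119 and 3956 counts. Both controls thus held male RNA and PD and YZ9 held 1 male and 1 female library each, so sex and treatment are partly mixed. The female library was replicate 2 in both treated groups, so between PD and YZ9 sex cannot be told apart from replicate number. The PD label was checked on 11 feedback genes of ERK signalling: both PD libraries lay below both controls for all 11, and Spry4 counts were 630 and 699 in the controls against 0 in each PD library. Sarcomere RNA was present in every library, with 24 sarcomere and chamber genes summing to 6188 to 13873 CPM (counts per 1000000 counts, on TMM-scaled library sizes). Of 15 mesoderm markers 11 were tested, and T, Mesp1, Tbx6 and Msgn1 were under 10 counts in every library. The streak gene Eomes had 185 and 145 counts in controls, 0 in each PD library, and 67 and 281 in YZ9. Mixl1, another streak gene, had 93 and 39 counts in controls, 1 and 6 in PD, and 21 and 326 in YZ9. RNA of other tissues varied between libraries. Primitive blood genes summed to 2481 and 7454 CPM in controls, 479 and 6640 in PD, and 35.9 and 1185 in YZ9. Definitive endoderm genes summed to 36.7 and 38.4 CPM in controls, 624 and 112 in PD, and 406 and 161 in YZ9. In the treated libraries most of that sum was Cldn6, Cdh1 and Epcam. Of 10 tested, both PD libraries lay above both controls for 5 and below for 2, Hhex and Prdm1 (19.2% and 19.5% of all genes). Both YZ9 libraries lay above for 6 and below for 0 (21.1% and 24.5% of all genes). Foxa3 and Cer1 were under 10 counts in every library. In bulk RNA, fewer cells of a type and less RNA per cell cannot be told apart.

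None of the 10 members passed an adjusted p of 0.05 in edgeR's quasi-likelihood test in PD against control, YZ9 against control or PD against YZ9. All genes together gave few calls under that rule: 0.0964% of genes in PD against control, 0.00642% in YZ9 against control and 0.122% in PD against YZ9. Nkx2-5, Gata5 and Mef2c were the members whose level was lower in both PD libraries than in all 4 others, an arrangement that 8.42% of all genes share. At an unadjusted p under 0.05 these 3 members were lower in PD than in control (5.38% of all genes) and no member was higher (5.42% of all genes). The same 3 were lower in PD than in YZ9 (4.40% of all genes) and none was higher (7.09%). Mef2c alone was lower in YZ9 than in control (6.93% of all genes) and none was higher (4.34%). Both PD libraries lay below both controls for 5 members (Nkx2-5, Gata5, Hand2, Isl1 and Mef2c), where 19.5% of all genes did. They lay above both controls for no member (19.2% of all genes). Both YZ9 libraries lay above both controls for 3 members (Gata4, Gata5 and Smarcd3), where 21.1% of all genes did. They lay below both controls for 2, Hand2 and Mef2c (24.5% of all genes). Both PD libraries lay below both YZ9 libraries for 3 members, where 21.4% of all genes did, and above them for none (21.6%). The median log2 fold change of the 10 members was -0.79 in PD, against 0.004 for all genes tested, and 0.32 in YZ9, against 0.002. PD and YZ9 were compared with the same 2 control libraries.

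**Figure D1:**
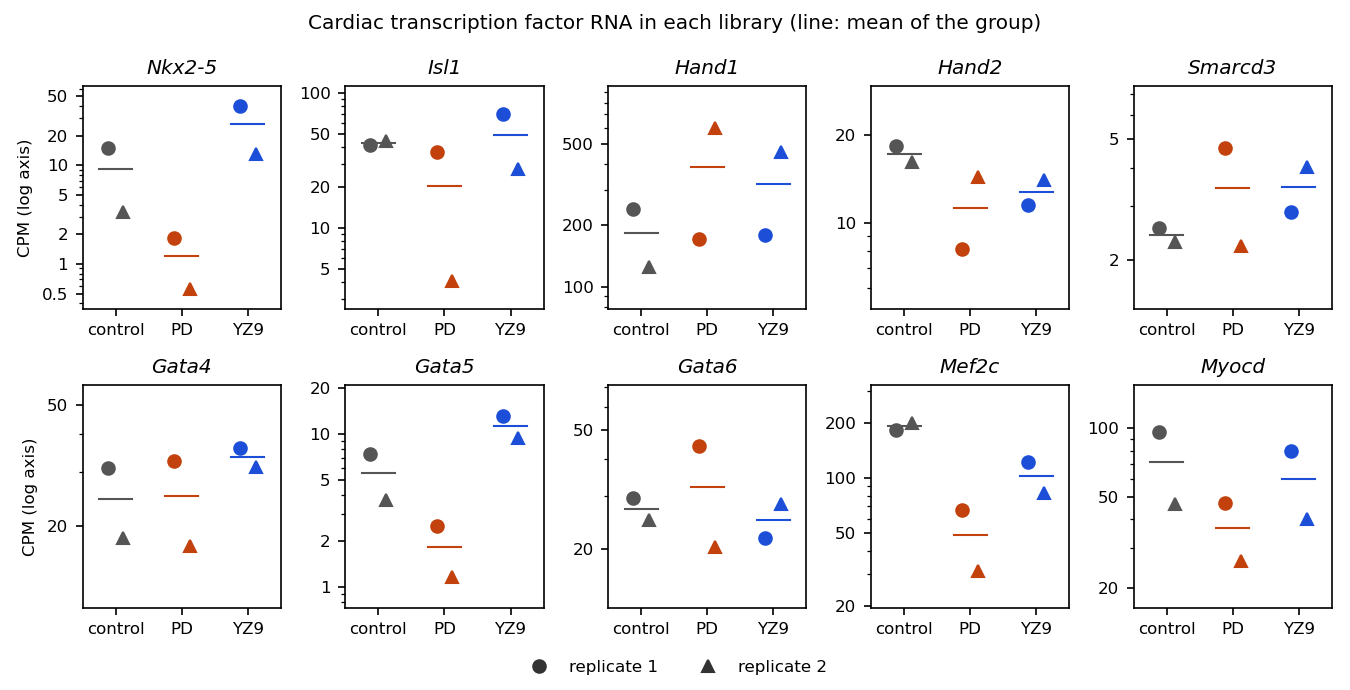
Each panel plots 1 member, with the group on the horizontal axis and CPM on a log vertical axis. Circles are replicate 1, triangles replicate 2 and lines the mean of a group. Nkx2-5, Gata5 and Mef2c have both PD points below the other 4, and Hand1 has PD replicate 2 and YZ9 replicate 2 above the other 4.

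The promoters of Nkx2-5, Gata5 and Mef2c are shown because these are the 3 members whose PD libraries lay below all others. The windows run from 250 bases before to 50 bases after a RefSeq transcript start (GRCm38.p6), 5′ to 3′ on the gene's strand, and 6 of the 10 members have an entry in the table used (Gata5, Hand2, Isl1, Mef2c, Nkx2-5 and Smarcd3). Capitals mark matches on either strand to 5 words. The word searched for GATA factors was AGATAA, that for an E-box was CANNTG, and that for ETS factors was CCGGAA. The word for NKX factors was AAGTG, and the last was TATAAA. The Nkx2-5 window is chr17:26841516-26841815 on the minus strand, inside the longer gene span of GENCODE M21.
Nkx2-5: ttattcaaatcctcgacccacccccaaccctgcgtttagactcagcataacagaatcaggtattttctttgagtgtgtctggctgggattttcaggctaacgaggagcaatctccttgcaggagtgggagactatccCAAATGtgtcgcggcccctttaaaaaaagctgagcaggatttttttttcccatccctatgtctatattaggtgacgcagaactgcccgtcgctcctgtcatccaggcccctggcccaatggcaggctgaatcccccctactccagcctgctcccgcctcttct
The Gata5 window is chr2:180334630-180334929 on the minus strand.
Gata5: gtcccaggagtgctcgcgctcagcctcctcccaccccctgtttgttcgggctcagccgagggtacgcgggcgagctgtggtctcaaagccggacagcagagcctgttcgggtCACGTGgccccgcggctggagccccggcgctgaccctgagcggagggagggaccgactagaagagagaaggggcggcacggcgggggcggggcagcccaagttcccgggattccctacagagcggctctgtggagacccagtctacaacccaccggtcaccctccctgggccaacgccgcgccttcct
The Mef2c window is chr13:83503784-83504083 on the plus strand, the first of 3 listed starts.
Mef2c: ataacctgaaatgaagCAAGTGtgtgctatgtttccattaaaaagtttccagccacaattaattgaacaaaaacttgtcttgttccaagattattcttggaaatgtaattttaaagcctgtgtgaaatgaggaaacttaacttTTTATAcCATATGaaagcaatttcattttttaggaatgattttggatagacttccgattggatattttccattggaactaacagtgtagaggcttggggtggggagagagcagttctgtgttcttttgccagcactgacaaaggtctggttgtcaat

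In these letters the Nkx2-5 and Gata5 windows each held 1 E-box (CAAATG at base -113 from the start and CACGTG at base -138) and no match to the other 4 words. The Mef2c window held 2 E-boxes (CAAGTG at base -234 and CATATG at base -100), an NKX word that overlaps the first of them, and a TATAAA match on the opposite strand at base -107. The E-box word is common, present in 72.3% of the 32851 mouse promoters of the table, and the others are present in 46.4% (NKX), 14.9% (ETS), 13.6% (TATAAA) and 11.2% (GATA). The GATA word was in the Hand2 and Isl1 windows and the ETS word in none of the 6 members' windows. Base composition differed widely: G and C made up 69.7% of the Gata5 window with 26 CpG, 51.7% of the Nkx2-5 window with 9, and 35.7% of the Mef2c window with 1, where the median promoter has 52.7% and 7. A match is a description of letters and not evidence of a bound factor.

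Nkx2-5, the homeobox gene that marks cardiac progenitors (ENSMUSG00000015579, chr17:26838664-26845009), had the widest range of the 10 members, 70.8-fold between its highest and lowest library. Its level was 15.1 and 3.39 CPM in the control libraries, 1.85 and 0.564 CPM in PD, and 39.9 and 13.2 CPM in YZ9. Both PD libraries lay below both controls and both YZ9 libraries, while control and YZ9 overlapped. The controls themselves differed 4.46-fold, where the median gene differed 1.26-fold between them. Against control the PD level was 7.63-fold lower (log2 fold change -2.93, SE 0.94, 95% interval -5.19 to -0.67), which edgeR's quasi-likelihood test did not call (adjusted p = 0.31). In the authors' deposited table the same contrast had a log2 fold change of -2.93 and an adjusted p of 0.00935, and there 1.86% of genes were called lower. YZ9 lay 2.87-fold above control (log2 1.52, SE 0.86, interval -0.54 to 3.57, adjusted p = 0.553). Leaving out 1 library moved this log2 value between 0.52 (without YZ9 replicate 1) and 2.97 (without control replicate 1). The difference of PD from YZ9 had a log2 value of -4.45 (SE 0.99, interval -6.83 to -2.07, edgeR adjusted p = 0.205). Of the 16 alternative settings described below, 4 called this difference. DESeq2 gave log2 -4.47 (adjusted p = 0.00512), where 525 of 26291 genes were called. Without the filter on low counts edgeR gave -4.46 (adjusted p = 1.49e-05), where 601 of 26291 were called. With sex as a covariate edgeR gave -4.48 (adjusted p = 0.0476), where 173 of 15568 were called. The 4th was the replicate block, which splits the PD and YZ9 libraries in the same way as sex does.

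Isl1, the LIM homeobox gene of later-added heart progenitors (chr13:116298281-116309689), was nearly equal in the controls at 41.3 and 44.0 CPM. PD replicate 1 was close to them at 36.7 CPM and PD replicate 2 was at 4.07 CPM, a 9.02-fold gap within 1 group. The YZ9 libraries were at 70.3 and 27.4 CPM, one above and the other below both controls. Neither treatment had a common Isl1 level in its libraries, and its log2 fold change was -1.07 in PD (SE 0.90, interval -3.22 to 1.09) and 0.19 in YZ9 (SE 0.89), with edgeR adjusted p of 0.793 and 0.951. Without PD replicate 2 the log2 value in PD was -0.22, and without PD replicate 1 it was -3.39. The ratio of Nkx2-5 to Isl1 counts within a library was 0.365 and 0.0771 in controls, 0.0503 and 0.139 in PD, and 0.568 and 0.481 in YZ9. The YZ9 libraries had the highest 2 ratios, and the control and PD ratios overlapped.

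Gata4, a GATA factor needed for heart tube formation and also present in endoderm (ENSMUSG00000021944, chr14:63198922-63271692), was at 30.9 and 18.3 CPM in controls, 32.8 and 17.3 CPM in PD, and 36.1 and 31.2 CPM in YZ9. PD spanned the same range as control, and YZ9 lay just above it. The log2 fold change was 0.02 in PD (SE 0.38, interval -0.88 to 0.93, edgeR adjusted p = 0.993) and 0.45 in YZ9 (SE 0.38, interval -0.46 to 1.36, adjusted p = 0.684). Gata6, its paralogue with roles in heart and endoderm (ENSMUSG00000005836, chr18:11052064-11085635), was at 29.6 and 25 CPM in controls, 44.2 and 20.3 CPM in PD, and 21.7 and 28.3 CPM in YZ9. The groups overlapped in all 3 comparisons, with a log2 fold change of 0.24 in PD (interval -0.66 to 1.15) and -0.13 in YZ9 (interval -1.03 to 0.78). The library with the highest Gata6, PD replicate 1, also had the highest sum of definitive endoderm genes, mostly Cldn6, Cdh1 and Epcam. The 12 visceral endoderm genes summed to 251 and 256 CPM in controls, 207 and 76.8 in PD, and 316 and 281 in YZ9. Of these Apoe made up 55.0% to 97.6% of the sum, at 244 and 244 CPM in controls, 114 and 56.9 in PD, and 308 and 272 in YZ9. The other 11 summed to 7.46 and 12.3 CPM in controls, 93.2 and 19.9 in PD, and 7.48 and 8.87 in YZ9, a sum chosen after the values were seen. PD replicate 1 was thus the highest in the sum without Apoe, though not in the full sum, with 34.3 CPM of Afp and 51.9 CPM of Rbp4. Both encode serum proteins. Hnf4a was at 0 counts in all 6. The part of endoderm RNA in the Gata4 and Gata6 values was not tested.

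Gata5, the third paralogue and the scarcest of the GATA genes (ENSMUSG00000015627, chr2:180325133-180334699), separated the groups. It was at 7.42 and 3.69 CPM in controls, 2.50 and 1.17 CPM in PD, and 13.1 and 9.41 CPM in YZ9. No group overlapped another, in the order PD, control, YZ9, and complete separation of the 3 groups in any order occurred in 11.0% of all genes. PD was 3.02-fold below control (log2 -1.60, SE 0.52, interval -2.84 to -0.35) with an edgeR adjusted p of 0.315. YZ9 was 2.02-fold above control (log2 1.02, SE 0.50, interval -0.18 to 2.22, adjusted p = 0.499), and PD was 6.11-fold below YZ9 (log2 -2.61, SE 0.53, interval -3.89 to -1.33, adjusted p = 0.162). In the authors' deposited table the log2 fold changes against control were -1.59 (adjusted p = 0.197) and 1.04 (adjusted p = 0.232). Exons of the antisense gene Gata5os overlap 258 bases of Gata5, 7.87% of its exon bases, where reads without strand cannot be assigned.

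A share within a library does not depend on the scaling between libraries. Of the summed counts of Gata4, Gata5 and Gata6, Gata5 made up 10.9% (95% Wilson interval 9.57 to 12.4) and 7.85% (6.49 to 9.48) in controls. Its share was 3.14% (2.47 to 3.99) and 3.01% (2.11 to 4.30) in PD and 18.4% (16.6 to 20.4) and 13.7% (12.2 to 15.2) in YZ9, with intervals that cover counting error only. The 2 PD libraries had nearly the same Gata5 share, although Gata4 and Gata6 were each higher in PD replicate 1. Per kilobase of exon the Gata5 share was 15.4% and 11.7% in controls, 4.78% and 4.51% in PD, and 24.1% and 18.9% in YZ9, with the groups in the same order. By counts, Gata6 made up 43.5% and 53.2% in controls, 55.6% and 52.4% in PD and 30.6% and 41.1% in YZ9, so YZ9 held the lowest 2 Gata6 shares. Gata4 stayed between 38.9% and 51.0% in all 6.

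**Figure D2:**
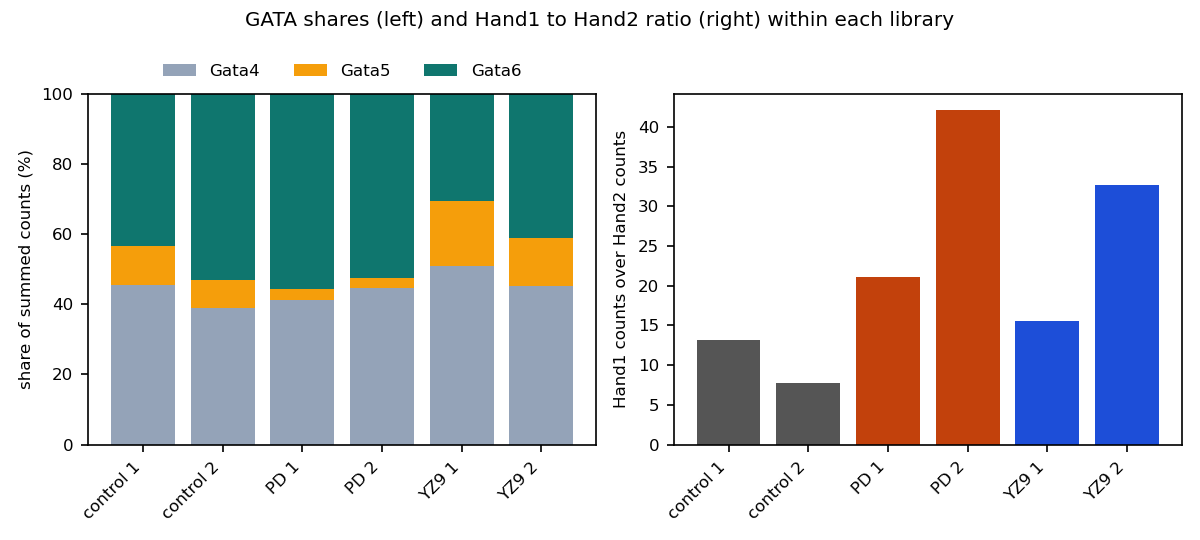
Stacked bars give the share of Gata4, Gata5 and Gata6 in their summed counts in each library (left, percent), and bars give Hand1 counts over Hand2 counts (right), without error bars. The Gata5 share of GATA counts separates PD (3.01% and 3.14%), control (7.85% and 10.9%) and YZ9 (13.7% and 18.4%).

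Hand1, a helix-loop-helix gene of lateral and extraembryonic mesoderm (chr11:57828705-57832818), was the member with the highest level per kilobase of exon in every group. It was at 242 and 125 CPM in controls, 172 and 603 CPM in PD, and 179 and 459 CPM in YZ9. Replicate 1 of each treatment lay between the controls, and replicate 2 of each lay above both. Those high libraries, PD replicate 2 and YZ9 replicate 2, are the ones with Xist counts. They lay above the other 4 for 7.36% of all genes and for 1 of the 10 members. The log2 fold change was 1.08 in PD (SE 0.68, interval -0.55 to 2.7) and 0.80 in YZ9 (SE 0.68, interval -0.82 to 2.42), with edgeR adjusted p of 0.682 and 0.688. In the libraries with Y-linked counts alone, 1 each of PD and YZ9, the 2 values were -0.10 and -0.02. The growth factor gene Bmp4, 65.6% to 76.4% of the summed mesoderm markers, was at 416 and 396 CPM in the libraries with high Hand1 and at 233 to 350 CPM in the other 4. The receptor gene Pdgfra was at 92.3 and 68.9 CPM in those with high Hand1, and at 74.2 CPM in PD replicate 1. In controls Pdgfra was at 25.1 and 18.0 CPM, and in YZ9 replicate 1 at 10.9 CPM. The authors' deposited DESeq2 test called it higher in PD (log2 1.95, adjusted p = 7.95e-09), where 1.81% of genes were called higher. Other markers lay the opposite way to Bmp4: Foxc1 was at 1.29 and 2.46 CPM in those with high Hand1 and at 7.15 to 13.9 CPM in the other 4. Trophoblast genes, mostly Plac1 and Esx1, summed to 343 and 154 CPM in those with high Hand1 and to 89.5 to 223 CPM in the others, with Elf5, Ascl2, Prl3d1 and Tpbpa under 10 counts in all 6. The part of sex and of other mesoderm or extraembryonic tissue in the Hand1 values was not tested.

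Hand2, the paralogue known for the right ventricle and limb bud (chr8:57320983-57324633), was at 18.3 and 16.1 CPM in controls, 8.15 and 14.3 CPM in PD, and 11.5 and 14.0 CPM in YZ9. All 4 treated libraries lay below both controls. PD lay below control for 19.5% of all genes and YZ9 for 24.5%. The share for both at once, against the same 2 controls, was not computed. The differences were small, with a log2 fold change of -0.62 in PD (SE 0.33, interval -1.40 to 0.16) and -0.43 in YZ9 (SE 0.33, interval -1.21 to 0.35), and edgeR adjusted p of 0.594 and 0.649. Hand2os1, a noncoding transcript on the opposite strand, starts inside the Hand2 gene, 3250 bases from the Hand2 start. Its level was 30.3 and 31.2 CPM in controls, 16.1 and 26.0 CPM in PD, and 19.8 and 28.6 CPM in YZ9. The ratio of Hand2os1 to Hand2 counts stayed between 1.65 and 2.04 in all 6 libraries, while Hand2 itself ranged 2.25-fold. The exons of Hand2 and Hand2os1 overlap by 461 bases, and the library kit does not keep the strand, so reads from that stretch cannot be assigned to one of them. Gata6os, beside Gata6, ranged more widely relative to its neighbour, from 0.0734 to 0.240 counts per Gata6 count. Hand1 exceeded Hand2 in every library, by 13.2 and 7.75 counts per Hand2 count in controls, 21.1 and 42.1 in PD, and 15.6 and 32.7 in YZ9. All 4 treated libraries had a higher ratio than both controls, at the closest 15.6 against 13.2. How often ratios of other gene pairs do so was not computed.

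Mef2c, a MADS-box factor that acts on muscle promoters and is also expressed in endothelium (ENSMUSG00000005583, chr13:83504034-83667080), was at 183 and 202 CPM in controls, 67.0 and 31.2 CPM in PD, and 122 and 83.0 CPM in YZ9. No group overlapped another, in the order PD, YZ9, control. Group means were 192 ± 13.2 CPM in control, 49.1 ± 25.3 in PD and 103 ± 27.8 in YZ9 (SD, n = 2). PD was 3.92-fold below control (log2 -1.97, SE 0.38, interval -2.87 to -1.07), with an edgeR adjusted p of 0.154, the smallest of any member in that comparison. Of the 16 alternative settings described below, 4 called it lower in PD, among them a fit with a lone PD library. With sex as a covariate edgeR gave -1.65 (adjusted p = 0.0313), where 124 of 15568 genes were called in either direction. YZ9 was 1.87-fold below control (log2 -0.90, SE 0.37, interval -1.78 to -0.03, adjusted p = 0.427), and PD was 2.09-fold below YZ9 (log2 -1.06, SE 0.37, adjusted p = 0.366). The authors' deposited table called Mef2c in both comparisons, at -1.97 with an adjusted p of 1.46e-05 in PD and at -0.88 with 0.0363 in YZ9, where 1.86% and 2.66% of genes were called lower.

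The 12 endothelial genes lay on both sides of control in PD. Tek, which encodes an angiopoietin receptor, was at 164 and 135 CPM in controls, 183 and 351 in PD, and 83.8 and 200 in YZ9, and made up 70.5% of the sum in PD replicate 2. The other 11 summed to 237 and 237 CPM in controls, 194 and 147 in PD, and 242 and 221 in YZ9. That sum was lower in both PD libraries than in the other 4, as Mef2c was, and leaving out Tek was chosen after its values were seen. The cadherin gene Cdh5 was at 22.6 and 19.6 CPM in controls and at 16.8 and 7.85 in PD, and Fli1, an ETS factor of endothelium and blood, at 47.4 and 60.3 CPM and at 31.7 and 24.6. In PD 3 of the 12 were lower at an unadjusted p under 0.05 in edgeR (5.38% of all genes) and none was higher (5.42%). Both PD libraries lay below both controls for 5 of the 12 (19.5% of all genes) and above them for 2 (19.2%). Those 2 were Tek and Cldn5, the latter at 1.35 and 2.33 CPM in controls and at 3.23 and 3.34 in PD. In YZ9, where Mef2c was also lower, 4 of the 12 were higher at an unadjusted p under 0.05 in edgeR (4.34% of all genes). There 2 were lower (6.93%). The part of endothelium in the Mef2c values was not tested.

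Myocd, the SRF coactivator of cardiac and smooth muscle (chr11:65176561-65269989), was at 96.5 and 46.8 CPM in controls, 47.2 and 26.3 CPM in PD, and 80.0 and 40.1 CPM in YZ9. All 3 groups overlapped, each with a library between 40.1 and 47.2 CPM. The log2 fold change was -0.96 in PD (SE 0.48, interval -2.12 to 0.20, edgeR adjusted p = 0.567) and -0.26 in YZ9 (SE 0.48, interval -1.40 to 0.89, adjusted p = 0.867). Smooth muscle genes summed to 14565 and 12130 CPM in controls, 14692 and 10197 in PD, and 11287 and 5644 in YZ9. Most of that sum was Acta2, at 10257.5 and 8348 CPM in controls, 9537 and 6904 in PD, and 7785 and 3357 in YZ9. In each group the library with less Myocd also had the lower smooth muscle sum. Their part in the Myocd values was not tested. The ratio of Mef2c to Myocd counts, without regard to length, was 1.89 and 4.31 in controls, 1.42 and 1.19 in PD, and 1.53 and 2.07 in YZ9. Per kilobase of exon Mef2c was above Myocd only in control replicate 2 (12.8 against 7.28). By longest transcripts Mef2c was above Myocd in all libraries but PD replicate 2 (4.96 against 5.14). Which of them had the higher level thus depends on the length used.

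Smarcd3, encoding the BAF subunit BAF60c (chr5:24590818-24624411), had the lowest control level of the members, per library and per kilobase of exon. It was at 2.55 and 2.30 CPM in controls, 4.65 and 2.21 CPM in PD, and 2.87 and 4.05 CPM in YZ9. PD overlapped control, and both YZ9 libraries were slightly above it. The log2 fold change was 0.50 in PD (SE 0.48, interval -0.64 to 1.65) and 0.51 in YZ9 (SE 0.48, interval -0.63 to 1.66), with edgeR adjusted p of 0.829 and 0.709. Exons of Chpf2 on the opposite strand cover 48.16% of the exon bases of Smarcd3, and without strand the reads there cannot be told apart. The other 18 BAF subunits were all tested, and neither edgeR nor the authors' deposited table called any in PD or YZ9. In PD 1 was higher and 0 were lower at an unadjusted p under 0.05 in edgeR, where 5.42% and 5.38% of all genes were. In YZ9 1 was higher and 0 were lower, where 4.34% and 6.93% of all genes were. Their median log2 fold change was 0.03 in PD and 0.17 in YZ9. The smallest p in PD belonged to Smarca2, an ATPase of the complex (log2 0.78, SE 0.29, edgeR adjusted p = 0.386), and in YZ9 to Smarcd1, a paralogue of Smarcd3 (1.12, SE 0.42, adjusted p = 0.396).

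**Figure D3:**
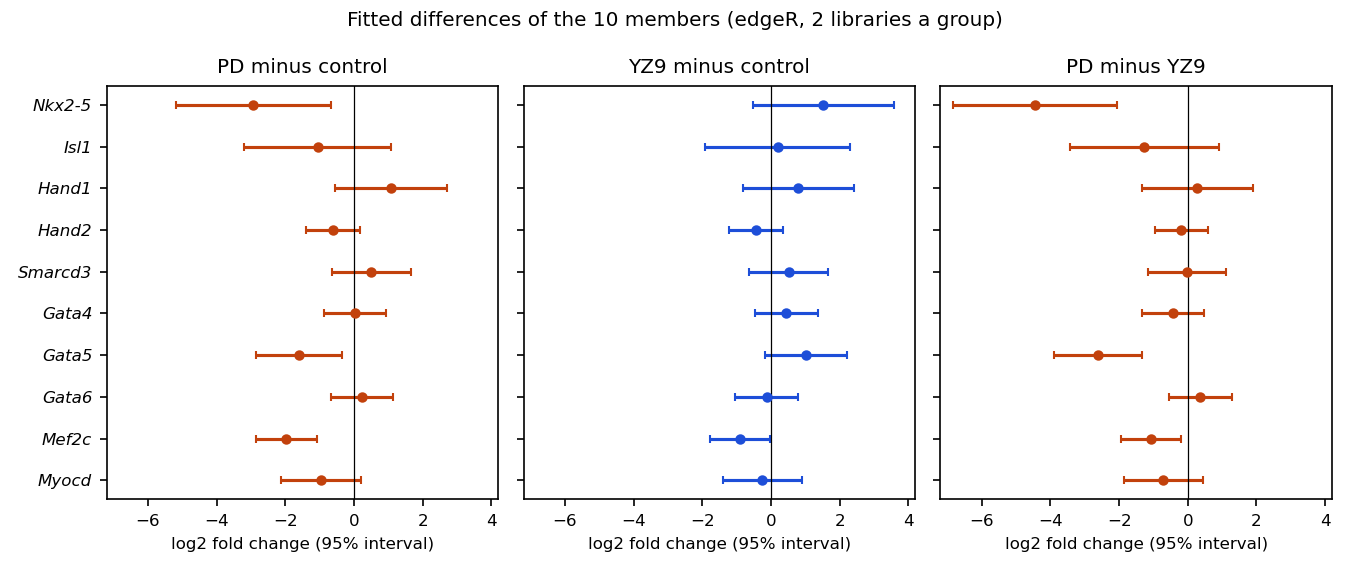
Log2 fold change of each member (points, horizontal axis) with its 95% interval from the edgeR fit, for PD minus control, YZ9 minus control and PD minus YZ9. The intervals of Mef2c, Nkx2-5 and Gata5 in both PD panels and of Mef2c in YZ9 lie below 0 before adjustment, and no member passed an adjusted p of 0.05.

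The order of the members was read per length, as CPM per kilobase of exon. In controls Hand1 led at 91.9 ± 41.4, followed by Mef2c at 12.2 ± 0.84, Myocd at 11.2 ± 5.47 and Isl1 at 10.8 ± 0.47 (SD, n = 2). Hand2 (7.33 ± 0.66), Gata4 (6.30 ± 2.29), Nkx2-5 (5.38 ± 4.82) and Gata6 (4.19 ± 0.50) came next, before Gata5 (1.69 ± 0.81) and Smarcd3 (0.47 ± 0.03). Neighbours whose 2 libraries did not overlap were Hand1 and Mef2c, Isl1 and Hand2, Gata6 and Gata5, and Gata5 and Smarcd3. The other neighbours overlapped and their order is not resolved. In PD, Gata5 came last, but it overlapped Smarcd3 before it, which in turn overlapped Nkx2-5, so their order is not resolved. Mef2c, its PD libraries at 4.26 and 1.98, came 7th there by merged exons and 4th by longest transcripts (10.7 and 4.96). In YZ9, Nkx2-5 came 2nd, its libraries at 23.2 and 7.67, overlapping Isl1 behind it. By longest transcripts Isl1 came before it. Hand1 led in all 3 groups and did not overlap the member behind it in any. Within each library Hand1 stood between the 93.3rd and the 99.1st percentile of the tested genes per length, and Smarcd3 between the 21.5th and the 30.2nd. The exon length of Mef2c merges many alternative transcripts. By its longest transcript its control level was 30.6, still below Hand1.

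Several members had an extreme in the same library. PD replicate 2 was the lowest of the 6 for 8 of the 10 members, all but Hand1 and Hand2, where 16.6% of all genes have their lowest value in it. YZ9 replicate 1 was the highest for 4 members, Nkx2-5, Isl1, Gata4 and Gata5, against 19.2% of all genes. PD replicate 2 also had a low sum of sarcomere genes (6331 CPM), as did YZ9 replicate 2 (6188 CPM).

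The sarcomere and chamber genes that these factors act on were all 24 tested, and edgeR called none in any comparison. The authors' deposited table called 1 in PD, Actn2 (adjusted p = 3.28e-06), and 3 in YZ9, Actc1 (0.0243), Nexn (0.0424) and Pln (0.0494), all lower. In PD 4 had an unadjusted p under 0.05 in edgeR, all lower, where 5.38% of all genes were. In YZ9 2 did, both lower, where 6.93% of all genes were. In PD both libraries lay below both controls for 13 of 24 and above them for 1, where 19.5% and 19.2% of all genes did. In YZ9 both libraries lay below both controls for 8 and above them for 1, where 24.5% and 21.1% of all genes did. The median log2 fold change of the 24 genes was -0.76 in PD and -0.33 in YZ9. Actn2, which encodes the Z-disc protein alpha-actinin, was at 20.0 and 19.0 CPM in controls, 4.00 and 1.37 CPM in PD, and 19.4 and 8.16 CPM in YZ9. Its log2 fold change in PD was -2.86 (SE 0.61, edgeR adjusted p = 0.173). The others with the smallest p in PD were the sodium-calcium exchanger gene Slc8a1 (-1.67), phospholamban (Pln, -2.13) and the troponin gene Tnni1 (-0.92). In YZ9 Nexn (-0.86), the cardiac actin gene Actc1 (-1.34), Pln (-1.85) and the tropomyosin gene Tpm1 (-0.48) had the smallest p, with edgeR adjusted p of at least 0.394.

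Member levels were also set against the summed sarcomere list of the same library. Per 1000 CPM of that list, Nkx2-5 was at 1.09 and 0.277 in controls, 0.166 and 0.0890 in PD, and 3.53 and 2.13 in YZ9. The 3 groups did not overlap, in the order PD, control, YZ9, although by CPM control replicate 1 (15.1) lay above YZ9 replicate 2 (13.2). The sum they were divided by was 13873 and 12226 CPM in controls, 11120 and 6331 in PD, and 11309 and 6188 in YZ9. The share of all genes that separate the groups after this division was not computed. Mef2c was at 13.2 and 16.5 in controls, 6.02 and 4.92 in PD, and 10.8 and 13.4 in YZ9, so PD was again below all others while YZ9 overlapped control. Gata5 was at 0.535 and 0.302 in controls, 0.225 and 0.184 in PD, and 1.16 and 1.52 in YZ9. Tpm1 and Actc1, which smooth muscle and early mesoderm also express, made up most of the sum (Tpm1 alone 48.3% to 66.5%). Without these 2 genes, a choice made after their values were seen, Nkx2-5 kept the same order of groups, at 3.91 and 0.913 in controls, 0.639 and 0.622 in PD, and 10.1 and 6.18 in YZ9. Mef2c in PD (23.2 and 34.4) then overlapped YZ9 (31.1 and 38.9) and stayed below control (47.3 and 54.3). Gata5 in PD (0.865 and 1.29) then overlapped control (1.92 and 0.994).

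**Figure D4:**
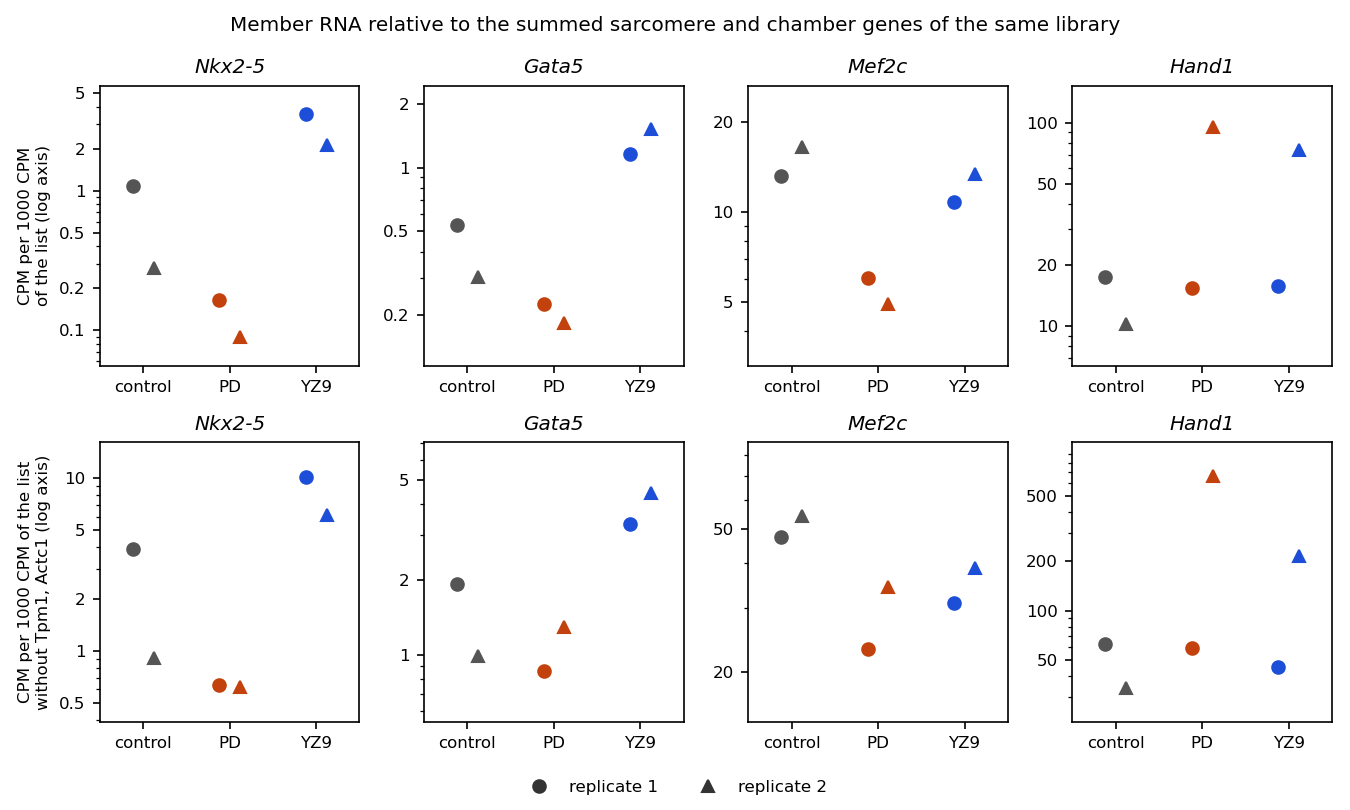
CPM of 4 members per 1000 CPM of the 24 summed sarcomere and chamber genes (upper row) and of the same sum without Tpm1 and Actc1 (lower row), on log axes, by group, with circles for replicate 1 and triangles for replicate 2. Nkx2-5 separates the 3 groups in both rows, though by CPM its control and YZ9 levels overlap, and Gata5 in PD overlaps control in the lower row.

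Of 36 other regulators that work with the members, 32 were tested and edgeR called none in PD or YZ9. The authors' deposited table called Foxf1 in PD and Tbx1, Tbx2, Tbx3 and Irx4 (higher) and Tbx18 (lower) in YZ9. Mesp1, Mesp2 and Mef2b were under 10 counts in every library. In PD 1 was higher and 2 were lower at an unadjusted p under 0.05, a share close to the 5.42% and 5.38% of all genes, and the median log2 fold change was -0.28. The smallest p belonged to Foxf1, a forkhead gene of lateral mesoderm (log2 2.25, SE 0.68, edgeR adjusted p = 0.278). Next were the TEAD factor Tead1 (-0.34, SE 0.13), Gata3 (-0.91, SE 0.36) and the pacemaker channel gene Hcn4 (-1.75, SE 0.79). In YZ9 3 were higher and 2 lower, where 4.34% and 6.93% of all genes were, with a median of 0.01. The 3 higher ones were T-box genes. Tbx3 was at 3.64 and 1.47 CPM in controls and at 17.5 and 34.3 CPM in YZ9 (log2 3.34, SE 0.62, edgeR adjusted p = 0.181), and Tbx2 had a log2 value of 2.17 (SE 0.58, adjusted p = 0.275). Tbx1 had 1 count in each control and 108 and 11 counts in YZ9 (adjusted p = 0.355). Fgf10, a growth factor gene of the later-added heart progenitors, was at -0.60 (SE 0.17, adjusted p = 0.309).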

How the data were processed

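Polyadenylated RNA of 6 mouse mesoderm explant libraries (3 groups of 2) was analysed from the authors' 2 deposited tables, PD with control and YZ9 with control. Per the submitters' processing notes the tools were CASAVA 1.8.2, STAR 2.7.9a and DESeq2 1.40.1 on GRCm38. No source used here gives the counting step, annotation or filters. Per the file headers, the deposited values hold a raw count for each gene in each library. The deposited normalized columns are a signal, counts over a size factor, and were not used. The deposited log2 fold change, the p-value and adjusted p-value and the Wald score of the authors' DESeq2 test were used only where the authors' deposited table is named. Control counts were identical in both tables, so the tables were joined.

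Genes passing filterByExpr (minimum count 10, minimum total 15) were scaled by TMM and fitted in R 4.3.3 with edgeR 4.0.16 (glmQLFit, glmQLFTest), all 6 libraries in 1 fit, 2-sided, with Benjamini-Hochberg adjustment over the 15568 genes and a threshold of 0.05. The fit had a common dispersion of 0.101. Standard errors were taken as the size of the log2 fold change divided by the root of F, and an SD is between the 2 libraries of a group. The pipeline was tested on simulated data. Within a group, the chi-square statistic of a gene averaged 49.6 (control), 86.7 (PD) and 56.3 (YZ9), where sampling alone gives about 1, so the spread between libraries sets the precision. Positions and exon lengths are from GENCODE M21 (15513 of the genes tested have a length), promoters from RefSeq.

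All 10 members are named, and of each list of related genes up to 4 with the smallest p in PD and in YZ9. Other marker genes and the genes called in the deposited tables were named after their values were seen. The members and lists were chosen with earlier results of these data known, and no set test was run. The alternatives were other scalings, filters and tests, DESeq2 1.42.0 and limma 3.58.1 among them, sex as a covariate, the replicate number as a block, and fewer libraries. The sarcomere sum without Tpm1 and Actc1, and the sums of marker lists without their most abundant gene, were added after seeing the data.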

Additional observations from a re-analysis of the deposited data

How the results depend on the processing

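Counts of genes called depended on the settings, and the cause was not tested. In PD against control, 15 genes were called, against 712 with no filter, 622 by DESeq2, 1 with the replicate block, 124 with sex as a covariate and 428 in the libraries with Y-linked counts alone (2 controls and 1 each of PD and YZ9, the lone library assumed to vary like the controls). In YZ9 against control, 1 gene was called, against 556, 501, 3, 122 and 183 under the same settings and 5 in the 4 libraries compared alone. In PD against YZ9, 19 were called, against 601, 525, 12, 173 and 132, with 34 by limma-trend, 29 by the newer edgeR fit and 0 in the 4 libraries alone (fewer libraries). Leaving out 1 library gave 0 to 33, 0 to 9 and 0 to 35 genes, with 0 in all 3 comparisons without either control, and 0 members called throughout. At an unadjusted p under 0.05, the fit of all libraries had 3, 1 and 3 members.

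No member was called in PD against control, against 2 with no filter (Nkx2-5, Mef2c) and 1 by DESeq2, with sex as a covariate and in the libraries with Y-linked counts alone (Mef2c each time, the last with 1 PD library). In PD against YZ9 the 0 became 3 with no filter (Nkx2-5, Gata5, Mef2c), 2 by DESeq2 (Nkx2-5, Gata5), 1 with sex as a covariate and 1 with the replicate block (Nkx2-5, adjusted p = 0.0402). In YZ9 against control it was 0 in all settings run. Same-numbered libraries deviated together with correlations of -0.098 (control and PD), 0.17 (control and YZ9) and 0.35 (PD and YZ9), so the numbers are not taken to pair the samples. The block changed no other call of a member.

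Leaving out 1 library kept Nkx2-5 in PD between -4.02 and -1.49 (log2), Gata5 between -2.24 and -1.01 and Mef2c between -2.62 and -1.52. Signs turned for members with small or split values. In PD the ranges were -0.51 to 0.45 (Gata4), -0.43 to 0.70 (Gata6), -0.10 to 1.72 (Hand1) and -0.13 to 0.94 (Smarcd3). In YZ9 they were -0.32 to 0.060 (Gata6), -0.020 to 1.35 (Hand1), -0.63 to 0.74 (Isl1) and -0.83 to 0.36 (Myocd). Between PD and YZ9 they were -0.30 to 0.81 (Gata6), -0.90 to 1.10 (Hand1), -0.66 to 0.17 (Hand2) and -0.64 to 0.41 (Smarcd3). With sex as a covariate YZ9 values turned to 0.095 (Gata6), -0.15 (Hand1) and 0.12 (Myocd), and with the replicate block Isl1 turned to -0.14. In the libraries with Y-linked counts alone, Hand1 was at -0.10 in PD, -0.020 in YZ9 and -0.076 between them, Myocd at 0.18 in YZ9, and Smarcd3 at 0.68 between PD and YZ9.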
